A study of Mus musculus with 2 samples.

Results

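The genes described here are 45 genes of DNA replication and mitosis, chosen by symbol among the 55386 features counted in both libraries. They comprise 15 replication genes, 25 mitosis genes and 5 chromatin and cytoskeleton genes that are often high in dividing cells. The cells were CD45+ leukocytes sorted from the aortas of mice of about 16 weeks carrying *Rank*-Cre and *Rosa26*-eYFP. In these mice Cre is made from the *Rank* gene, and a cell in which it has acted keeps the eYFP label, as do its descendants. The steady state group was untreated and its library pooled 3 animals, while the AngII group had received angiotensin II, a hormone that constricts vessels, at 1.8 µg/kg/min for 10 days and its library pooled 2 animals. Each group was 1 droplet library (10x 3′ chemistry, version 3.1), so there are no replicates, no test was made, and differences between animals, libraries and treatment cannot be told apart.

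A dividing cell first copies its DNA and then segregates the copies. Replication begins where the MCM helicase is loaded onto DNA and activated, PCNA clamps the polymerases to the template, and enzymes such as ribonucleotide reductase supply nucleotides. In mitosis, topoisomerase II and condensins compact and untangle the chromosomes, cyclin B with CDK1 drives entry, and kinesins and checkpoint kinases build the spindle and control the separation. Resident macrophages of many tissues can renew by dividing in place, whereas neutrophils leave the marrow after their last division.

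The promoters of these genes are known for 3 short motifs, and 150 bases before the start of the best counted members are shown to illustrate them. The cell cycle homology region (CHR; TTTGAA or TTTAAA) and the CCAAT box (CCAAT) are typical of genes of mitosis, and the E2F site (TTTCCCGC, TTTGGCGC, TTTCGCGC or TTTGCCGC) of genes of replication. Capitals mark these letters on either strand, and in *Mcm6* 2 E2F matches on opposite strands overlap. Sequences are from RefSeq on GRCm38.p6, 5′ to 3′ on the strand of the gene. The replication genes shown are *Pcna* at chr2:132253181-132253330 (minus strand), *Mcm3* at chr1:20820313-20820462 (minus strand) and *Mcm6* at chr1:128359706-128359855 (minus strand).
Pcna: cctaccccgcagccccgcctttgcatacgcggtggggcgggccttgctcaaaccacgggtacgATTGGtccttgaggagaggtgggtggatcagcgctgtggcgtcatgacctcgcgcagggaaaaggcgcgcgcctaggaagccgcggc
Mcm3: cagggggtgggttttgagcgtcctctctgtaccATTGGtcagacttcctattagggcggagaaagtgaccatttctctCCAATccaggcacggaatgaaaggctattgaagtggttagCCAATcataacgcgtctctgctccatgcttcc
Mcm6: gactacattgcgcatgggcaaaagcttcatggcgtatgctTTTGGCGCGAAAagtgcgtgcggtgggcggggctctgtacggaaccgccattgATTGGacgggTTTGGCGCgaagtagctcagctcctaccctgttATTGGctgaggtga
The mitosis genes are *Top2a* at chr11:99024190-99024339 (minus strand), *Mki67* at chr7:135716380-135716529 (minus strand) and *Cenpa* at chr5:30666736-30666885 (plus strand), with *Cdk1* at chr10:69352913-69353062 (minus strand) added because it held all 3 motifs.
Top2a: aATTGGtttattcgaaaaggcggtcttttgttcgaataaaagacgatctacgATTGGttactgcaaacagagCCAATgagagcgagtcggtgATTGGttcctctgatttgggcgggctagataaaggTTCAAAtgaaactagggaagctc
Mki67: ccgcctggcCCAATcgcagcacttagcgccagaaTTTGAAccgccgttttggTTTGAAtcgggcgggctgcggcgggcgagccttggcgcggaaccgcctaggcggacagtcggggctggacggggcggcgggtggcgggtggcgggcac
Cenpa: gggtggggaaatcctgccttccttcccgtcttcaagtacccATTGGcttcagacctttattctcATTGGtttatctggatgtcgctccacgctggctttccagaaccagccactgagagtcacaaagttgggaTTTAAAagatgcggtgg
Cdk1: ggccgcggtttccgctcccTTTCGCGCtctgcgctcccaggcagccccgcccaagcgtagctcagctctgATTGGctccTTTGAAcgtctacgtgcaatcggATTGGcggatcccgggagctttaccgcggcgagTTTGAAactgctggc
*Hmgb2*, the member with the most transcripts, is shown at chr8:57511693-57511842 (plus strand).
Hmgb2: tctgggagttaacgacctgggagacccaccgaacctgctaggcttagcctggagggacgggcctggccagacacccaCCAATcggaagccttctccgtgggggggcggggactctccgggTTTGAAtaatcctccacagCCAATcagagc
Of the 45 genes, 38 had a RefSeq promoter, in which 250 bases before the start were searched. A CHR was found in 54.5% of the mitosis promoters and 30.8% of the replication promoters, against 25.5% of all 27025 promoters searched. A CCAAT box was found in 86.4% and 76.9%, against 34.5% of all. An E2F site was found in 4 of 13 replication promoters (30.8%) and in 1 of 22 mitosis promoters (4.55%), against 1.91% of all. A match is a description of the letters and not of factor binding.

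The libraries differed widely in size and depth. After the filter of the study (300 to 6500 detected genes and at most 5% mitochondrial counts), 306 steady state cells with a median of 9105 unique molecular identifiers (UMIs) and 4198 AngII cells with a median of 1092 were kept. The libraries shared 0 cell barcodes, and doublets were left in. Levels are given as UMIs per 1000000 UMIs of the cells named (CPM), and ratios as AngII over steady state, both with 95% intervals. These intervals are exact and cover counting error only. They take UMIs as independent, so they are too narrow where 1 cell holds many of them. A fold was read for genes with at least 20 UMIs over both libraries, and a gene at 0 in 1 library was set to a floor of 3 UMIs, which gives a lower bound. Shares of cells were compared after thinning each cell to 1000 UMIs, which left out 3 steady state and 1910 AngII cells. Depth and condition cannot be told apart where full depth is used.

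Over all cells, replication genes were somewhat higher in the AngII library, where 2541 of their 8719 UMIs lay in cells gated as T cells. The summed level of the 45 genes was nearly equal. Mitosis genes were somewhat lower in the full sums only, since their ratio of 0.803 was 0.961 (0.904 to 1.02) without the cell with the most member UMIs in each library and 1.35 (1.25 to 1.46) without the top 3. Such a step takes a larger part of the 306 steady state cells than of the 4198 AngII cells. All 45 genes were detected in both libraries. They summed to 1480.0 CPM (1441 to 1520.0) at steady state and 1537 CPM (1519 to 1555) on AngII, a ratio of 1.04 (1.01 to 1.07). In single genes, 3 members stood at least 2-fold higher on AngII and 1 at least 2-fold lower, beside 6.56% and 9.82% of all 13559 genes with as many UMIs. The median member had a ratio of 1.01, against 0.946 for all genes.

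**Figure D1:**
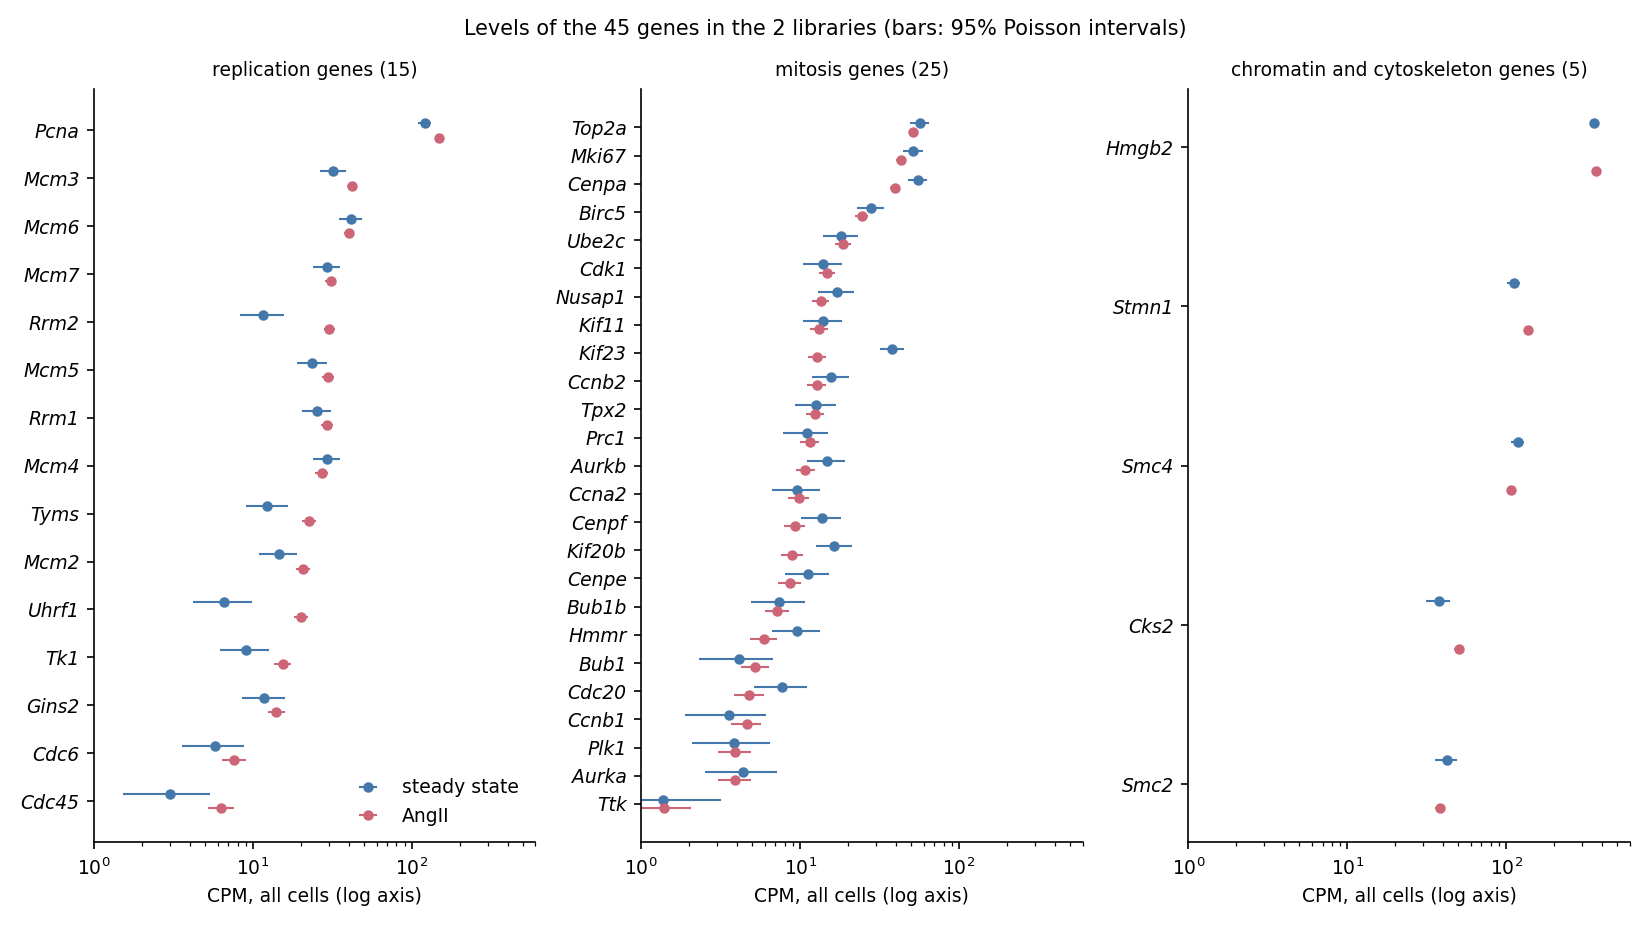
CPM of each of the 45 genes (log axis) in the steady state and AngII libraries, in panels for replication, mitosis, and chromatin and cytoskeleton genes; bars are 95% counting intervals. Most pairs of points lie close together, while *Uhrf1*, *Rrm2* and *Cdc45* lie higher on AngII and *Kif23* lower.

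Replication genes summed to 376 CPM (356 to 396) at steady state and 484 CPM (474 to 494) on AngII, a ratio of 1.29 (1.22 to 1.37). The ratio of single genes ran from 0.922 for *Mcm4* to 3.06 for *Uhrf1*, and the interval lay above 1 for 9 of the 15. *Pcna*, the polymerase clamp and the most abundant of them, had 121 CPM at steady state and 148 CPM on AngII. It was detected in 57.5% of the deep steady state cells and 25.1% of the shallower AngII cells. Of the helicase subunits, *Mcm3* stood at 32.1 and 42.2 CPM (ratio 1.32, 1.08 to 1.61), *Mcm6* at 41.1 and 40.3 CPM, *Mcm7* at 29.1 and 30.9 CPM and *Mcm5* at 23.6 and 29.8 CPM. *Rrm1*, the large subunit of ribonucleotide reductase, stood at 25.2 and 29.3 CPM. The subunits of this helicase thus differed little between the libraries. Cells gated as T cells held 123 of the 1370 replication UMIs at steady state and 2541 of the 8719 on AngII. Of these AngII UMIs, 2088 lay in T cells with transcripts of immature T cells of the thymus. In macrophages the replication ratio was 0.929 (0.855 to 1.01), and 1.14 (1.04 to 1.25) without the top macrophage of each library. On AngII, replication genes stood in T cells at 5.04 times the level of the other cells (4.81 to 5.28). At steady state T cells stood at 0.855 times the level of the other cells (0.704 to 1.03). No ratio of AngII over steady state was taken outside T cells, and the part of T cells in the ratio over all cells was not tested.

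The 3 members that rose at least 2-fold over all cells were all replication genes. *Uhrf1*, which guides maintenance of DNA methylation on new strands, rose from 6.58 to 20.2 CPM, a ratio of 3.06 (2.03 to 4.84). *Rrm2*, the small and cell cycle-dependent subunit of ribonucleotide reductase, rose from 11.5 to 30.3 CPM (2.63, 1.92 to 3.69), and its 42 steady state UMIs lay in 4 cells while its 545 AngII UMIs lay in 167. *Cdc45*, which activates the helicase, rose from 3.02 to 6.33 CPM (2.10, 1.13 to 4.32). On AngII, T cells with transcripts of immature T cells held 126 of 363 *Uhrf1*, 165 of 545 *Rrm2* and 28 of 114 *Cdc45* UMIs. Other AngII T cells held 17, 33 and 6. Below the 2-fold threshold, *Tyms* and *Tk1*, enzymes of thymidine nucleotide supply, had ratios of 1.83 (1.34 to 2.55) and 1.70 (1.18 to 2.52). The remaining replication genes, *Mcm2*, *Mcm4*, *Gins2* and *Cdc6*, had ratios from 0.922 to 1.42.

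Mitosis genes summed to 439 CPM (418 to 461) at steady state and 353 CPM (344 to 362) on AngII, a ratio of 0.803 (0.760 to 0.849). Their ratios ran from 0.335 to 1.29, and the interval lay below 1 for 7 of the 25 and above 1 for 0. *Top2a*, the topoisomerase of dividing cells, had 56.7 and 51.6 CPM and *Mki67*, which coats mitotic chromosomes, 51.5 and 43.3 CPM. *Cenpa*, the histone of centromeres, stood at 55.1 and 39.6 CPM (0.719, 0.614 to 0.845). *Birc5* (28.0 and 24.4 CPM), *Ube2c* (18.1 and 18.7 CPM), *Cdk1* (14.0 and 14.8 CPM) and *Nusap1* (17.0 and 13.5 CPM) had ratios whose intervals held 1. Besides *Mki67* and *Cenpa*, the intervals below 1 were those of *Kif23*, *Kif20b* (ratio 0.544), *Hmmr* (0.613), *Cdc20* (0.622) and *Cenpf* (0.677), genes of the spindle, the kinetochore and mitotic exit. At steady state 1 cell held 39.3% of the *Cdc20*, 37.1% of the *Hmmr*, 32.0% of the *Cenpf* and 29.8% of the *Mki67* UMIs. For *Kif23*, *Kif20b* and *Cenpa* it was 19.4%, 15.0% and 8.96%. The intervals do not cover this gathering of UMIs. The other mitosis genes ranged from 1.37 CPM for the kinase *Ttk* to 16.4 CPM for *Kif20b* at steady state.

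*Kif23*, a kinesin of the midbody at which daughter cells part, was the member that fell at least 2-fold. It fell from 38.1 to 12.8 CPM, a ratio of 0.335 (0.270 to 0.417). Its UMIs were spread over 59 steady state cells (19.3%) and 130 AngII cells (3.1%). At equal depth it was detected in 10 of 303 steady state cells (3.30%) and 19 of 2288 AngII cells (0.830%), so the difference was also present after thinning. Of its UMIs, 46.0% at steady state and 38.3% on AngII lay outside the cells with a *Mki67* or *Top2a* UMI. Such shares were also found for *Kif20b* (45% and 39.1%), *Aurka* (37.5% and 37.1%) and *Aurkb* (35.2% and 30.3%), and *Cenpa* had higher ones (68.2% and 61.7%), whereas for *Birc5*, the survivin of the chromosomal passenger complex, they were 1.96% and 12.7%.

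The chromatin and cytoskeleton genes summed to 665 CPM (639 to 692) and 699.6 CPM (687 to 712), a ratio of 1.05. *Hmgb2*, a DNA-bending chromatin protein, had 355 and 367 CPM and gave the most UMIs of any member, 1294 and 6618. *Smc4* and *Smc2*, the core of condensin, had 119 and 107 CPM and 42.2 and 38.4 CPM. *Stmn1*, which destabilises microtubules, had 112 and 137 CPM, and *Cks2*, a small subunit of cyclin-dependent kinases, 37.6 and 50.4 CPM. Outside the cells with a *Mki67* or *Top2a* UMI lay a median of 55.6% of the UMIs of these 5 genes at steady state, against 48.1% for replication genes and 7.14% for mitosis genes. On AngII the medians were 48.4%, 38.4% and 19.6%. Thus *Hmgb2*, *Smc4* and *Pcna* were detected well beyond the cells in which *Mki67* or *Top2a* was detected, and most mitosis genes were not. Those cells were deeper, with medians of 20219 and 2082 UMIs against 9105 and 1092 over all cells, and shallow cells can miss both genes. No share of all UMIs outside those cells is given beside these values.

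A few cells carried much of the steady state signal. The top cell, gated as a macrophage, held 776 UMIs of 43 members, 14.4% of all member UMIs of its library, and the next were type 2 dendritic cells with 545 and 415. The top 10 cells held 51.3% at steady state and 19.7% on AngII, where the top cell was a T cell with 870 member UMIs. Without the top cell of each library, the sums were 1282 and 1491 CPM, a ratio of 1.16, and 6 members stood at least 2-fold higher. Without the top 3, they were 1033 and 1434 CPM, a ratio of 1.39, the mitosis ratio turned from 0.803 to 1.35 and 15 members stood at least 2-fold higher. *Kif23* was the only member at least 2-fold lower in each of these sums. Leaving out equal numbers of cells takes a larger part of the smaller steady state library, which by itself tends to raise these ratios. Here and below, shares of all genes were taken for the full sums only. Counts of members without the top cells therefore have no such share beside them.

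Cells were next gated into classes by marker genes, as a cell went to the class of which it expressed the largest share of markers, and 7 steady state and 323 AngII cells stayed unassigned. The gate fixes the markers it used, so the classes were compared on genes outside the gate. *Csf1r*, the receptor of the macrophage growth factor, stood at 1377 CPM in steady state and 744 CPM in AngII macrophages, against 34.4 and 36.1 CPM in T cells. *Thy1*, a T cell surface protein, stood at 323 and 468 CPM in T cells, against 5.51 and 4.75 CPM in macrophages. *Cd22*, of B cells, stood at 253 and 221 CPM in B cells and at 0 in T cells of both libraries. *Batf3*, a factor of type 1 dendritic cells, stood at 183 and 209 CPM there and at 165 and 86.8 CPM in type 2 dendritic cells, while *Irf4*, of type 2 dendritic cells, stood at 112 and 47.3 CPM in these and at 0 and 1.16 CPM in type 1 dendritic cells. The gate separated the 20 steady state type 2 dendritic cells least. There 7 of their 8 markers were higher than in other cells, and the markers summed to 1965 against 727 CPM. The paper named no dendritic cluster at steady state and described *Mki67* in an antigen-presenting macrophage cluster. The name of these 20 cells is therefore uncertain. In sums over a class, fewer cycling cells and less RNA per cycling cell cannot be told apart.

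Among the classes with at least 20 cells in a library, the summed level of the 45 genes at steady state was highest in the cells gated as type 2 dendritic cells, at 3029 CPM (2877 to 3187). They were followed by T cells with 1319 CPM and macrophages with 1291 CPM, which did not differ beyond their intervals, then by monocytes with 963 CPM and B cells with 858 CPM. This order rested on few cells, and leaving out the same number takes a larger part of a smaller class. Without the 3 cells with the most member UMIs in each class, type 2 dendritic cells had 772 CPM (689 to 863), below T cells with 1061 CPM (956 to 1174) and monocytes with 965 CPM (842 to 1101), while B cells had 817 CPM and macrophages 672 CPM. On AngII, among the classes with at least 20 cells there, the level was highest in T cells, at 5596 CPM (5471 to 5723), followed by type 1 dendritic cells with 2848 CPM, type 2 dendritic cells with 1157 CPM, neutrophils with 1113 CPM and macrophages with 1039 CPM. Without the top 3 cells of each class, T cells (4625 CPM) and type 1 dendritic cells (2141 CPM) were still the highest of the 6 classes with at least 10 cells in both libraries, and type 2 dendritic cells had 527 CPM, below macrophages with 913 CPM. Smaller classes also held these transcripts, such as 12 NK cells on AngII with 2142 CPM (1783 to 2552), and at steady state 10 type 1 dendritic cells with 524 CPM, 6 type 2 innate lymphoid cells with 1973 CPM (1589 to 2423) and 4 neutrophils with 1724 CPM (1231 to 2347). Of the 45 genes, 37 had their highest level at steady state in type 2 dendritic cells among classes with at least 10 cells, with the top cells included, and 40 in T cells on AngII. The share of all genes that are highest in these classes was not taken, so these counts only describe the members.

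**Figure D2:**
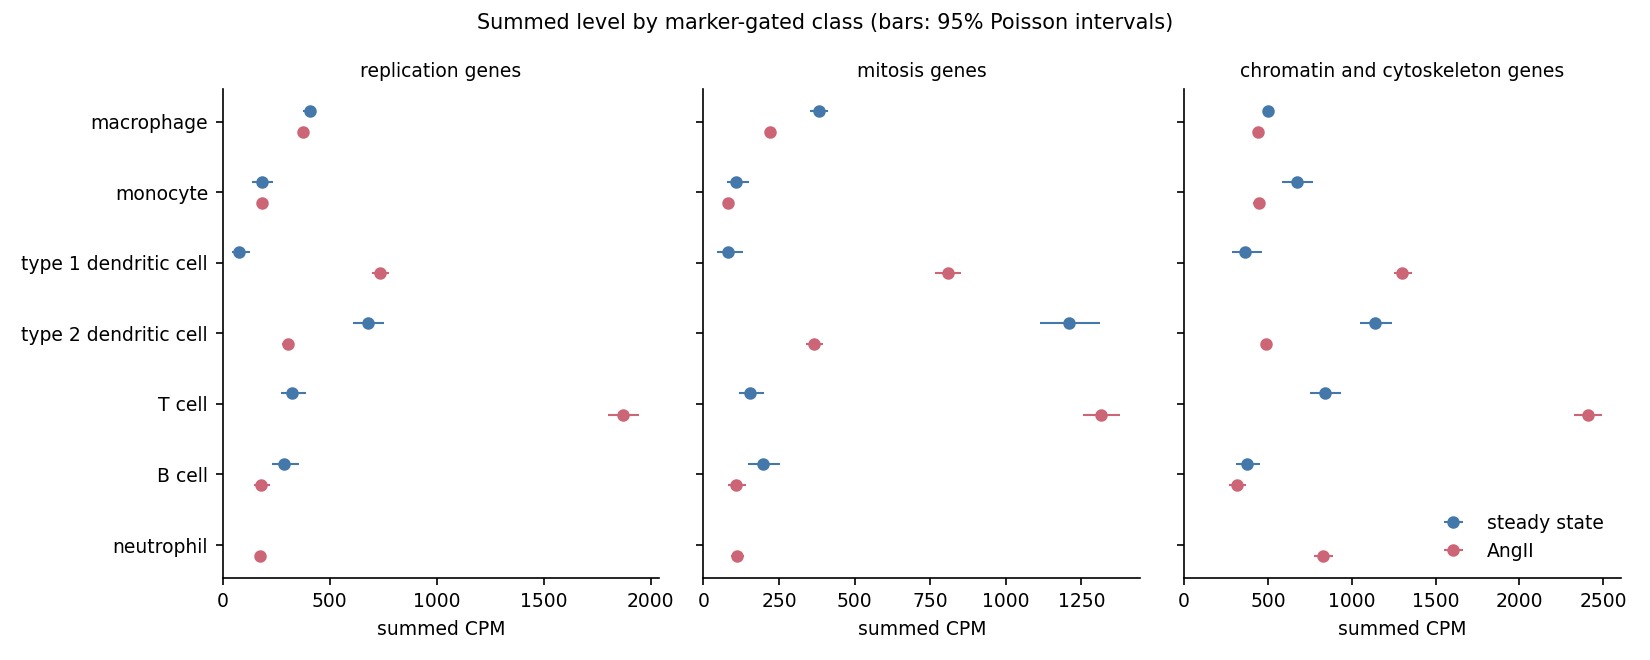
Summed CPM per cell class for replication, mitosis, and chromatin and cytoskeleton genes, with 95% counting intervals, in the steady state and AngII libraries. T cells and type 1 dendritic cells lie higher on AngII in all 3 panels, and type 2 dendritic cells lie lower.

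Shares of cells at equal depth gave the same order for T cells and type 2 dendritic cells. Over all cells, 61 of 303 (20.1%) at steady state and 500 of 2288 (21.9%) on AngII had a UMI of at least 2 of the 45 genes. In T cells the share was 24.4% (10 of 41, 12.4 to 40.3) at steady state and 54.7% (94 of 172, 46.9 to 62.2) on AngII, and in type 2 dendritic cells it was 55.0% (11 of 20, 31.5 to 76.9) and 10.4% (13 of 125, 5.65 to 17.1). Both pairs of intervals were apart, but they cover the counting of cells within 1 library each and not differences between animals or libraries. In macrophages the share was 13.8% (18 of 130, 8.42 to 21.0) and 18.8% (242 of 1284, 16.7 to 21.1), and in type 1 dendritic cells 10.0% (1 of 10) and 26.2% (37 of 141), with overlapping intervals. At full depth, the macrophage share was 86.4% at steady state and 35.9% on AngII, the opposite order, with median depths of 10276 and 1031 UMIs.

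Neutrophils, which do not divide in tissue, served as a background. Of 192 AngII neutrophils, 49 (25.5%) had at least 2 of the 45 genes, mainly through chromatin and cytoskeleton genes, which summed to 828 CPM there against 110.0 CPM for mitosis genes. With the 40 replication and mitosis genes alone, their share was 3.12% (1.16 to 6.68). By this measure AngII T cells had 38.4% (31.1 to 46.1) and steady state T cells 4.88% (0.596 to 16.5), type 2 dendritic cells had 8 of 20 cells (19.1 to 63.9%) at steady state and 7.20% (3.35 to 13.2) on AngII, and macrophages had 6.92% (3.21 to 12.7) and 10.7% (9.11 to 12.6). Type 1 dendritic cells on AngII had 17.7% (25 of 141, 11.8 to 25.1). B cells, at 6.12% and 2.78%, had intervals that overlapped that of neutrophils. The share with the 45 genes is therefore no measure of dividing cells on its own, while by the share with the 40 genes the intervals of T cells, type 1 dendritic cells and macrophages on AngII and of type 2 dendritic cells at steady state lay above that of neutrophils.

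**Figure D3:**
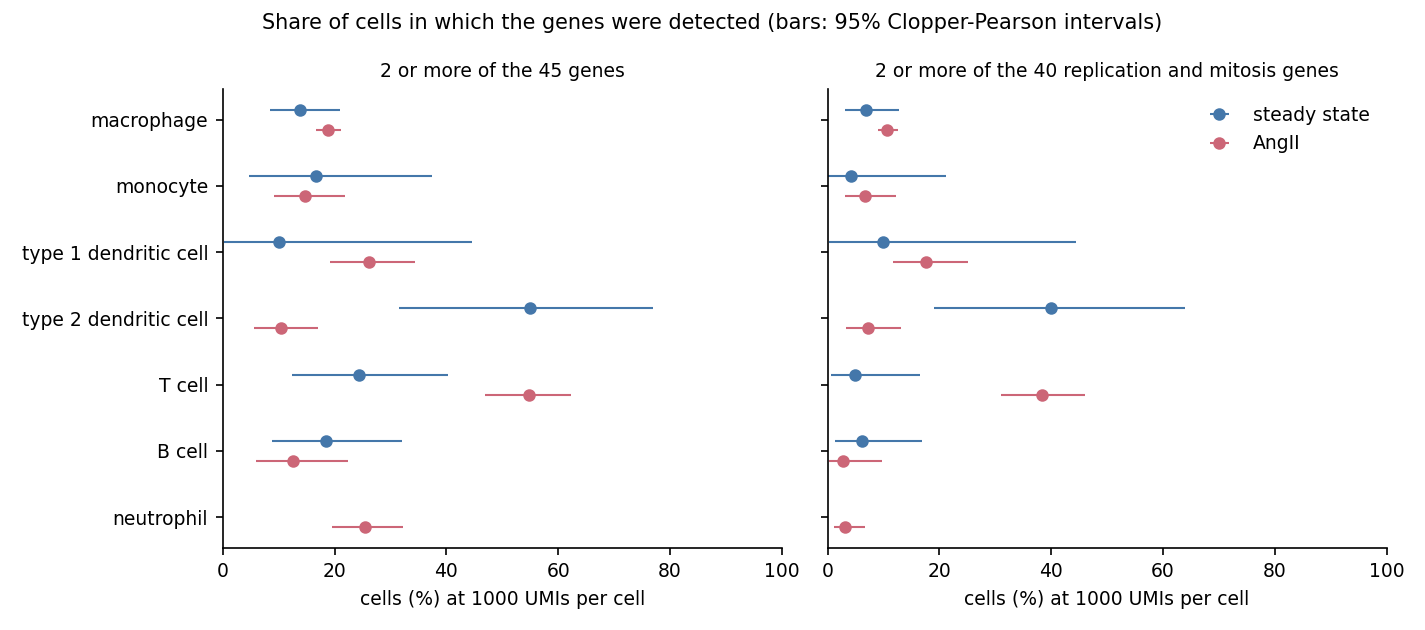
Percent of cells with a UMI of at least 2 member genes after thinning to 1000 UMIs, per class and library, for the 45 genes and for the 40 replication and mitosis genes, with exact 95% intervals. AngII T cells (54.7% and 38.4%) and steady state type 2 dendritic cells (11 and 8 of 20 cells) are the highest points.

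Few cells were strongly positive. At 1000 UMIs, 16 of 303 steady state cells (5.28%, 3.05 to 8.43) and 193 of 2288 AngII cells (8.44%, 7.33 to 9.65) had at least 3 UMIs of the 40 genes, with 7 and 53 of them at exactly 3 and 20 and 89 further cells just below at 2. AngII T cells had 52 of 172 (30.2%) and macrophages 97 of 1284 (7.55%), against 4 of 130 (3.08%) steady state macrophages and 2 of 192 AngII neutrophils (1.04%). A UMI of both a replication and a mitosis gene was found in 25.6% of AngII T cells and 4.88% of steady state T cells, and in 6.0% and 4.62% of macrophages. *Mki67* was detected in 21 steady state cells, 9 of them with *Top2a*, and in 204 AngII cells, 78 of them with *Top2a*. At full depth, *Mki67* cells had a median of 15 members at steady state and 8.5 on AngII, against 4 and 1 in the other cells. They were also deeper, with medians of 25744 and 2289 UMIs against 8701 and 1068, and the part of depth in this difference was not tested.

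**Figure D4:**
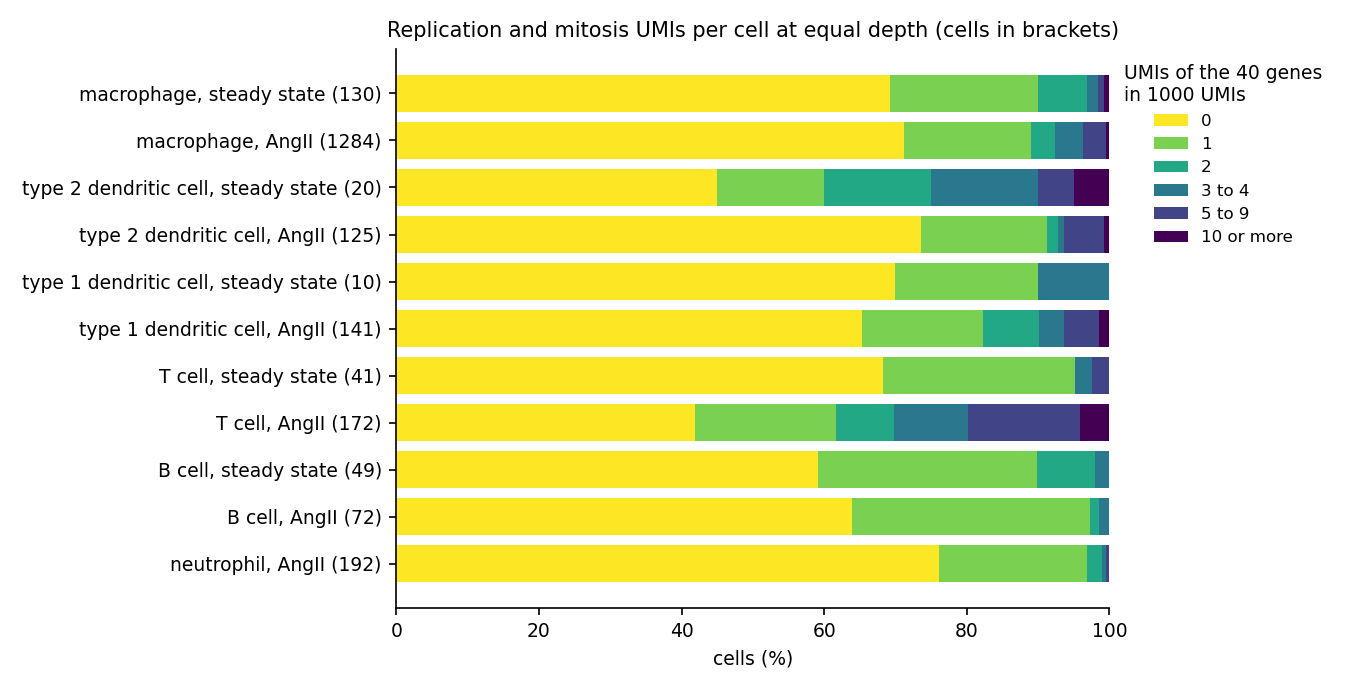
Percent of cells by the number of UMIs of the 40 replication and mitosis genes per 1000 UMIs, stacked from 0 to 10 or more, per class and library. AngII T cells have the widest upper bands, with 30.2% of cells at 3 or more UMIs.

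In macrophages, the direction of the difference turned when the top cell of each library was left out. The 45 genes summed to 1291 CPM (1237 to 1348) in 132 steady state macrophages and 1039 CPM (1018 to 1061) in 2476 AngII macrophages, a ratio of 0.805. Of 44 members with enough UMIs, 7 stood at least 2-fold lower, beside 9.27% of all genes, and 1, *Cdc45* (2 UMIs at steady state), at least 2-fold higher, beside 8.66%. The 7 were all mitosis genes, *Kif23* (35.5 and 7.92 CPM, ratio 0.223), *Bub1*, *Nusap1*, *Hmmr*, *Cenpe*, *Cenpf* and *Top2a* (56.9 and 28.3 CPM, 0.497). However, 59.8% of the steady state mitosis UMIs lay in the top cell. Without the top macrophage of each library the sums were 837 CPM (793 to 884) and 989 CPM (969 to 1010.4), a ratio of 1.18, so the direction turned. Then 12 of 43 members stood at least 2-fold higher and 1, *Kif23*, at least 2-fold lower, with *Kif23* at 19.5 and 7.40 CPM (0.380, 0.244 to 0.603), *Mki67* at 10.1 and 22.1 CPM and *Top2a* at 18.8 and 23.8 CPM. No share of all genes was taken without the top cells. With thinned cells the ratio was 1.30. Leaving out 1 of 132 cells takes a larger part than 1 of 2476. The top cells held 36.8% and 5.33% of the member UMIs, so this step tends to raise the ratio. The lower level of *Kif23* on AngII did not depend on the top steady state cell. Neither did the higher level of *Cdc45* (ratio 3.14 with and 2.99 without it), which rests on 2 steady state UMIs and has an interval that holds 1 (0.764 to 25.7 without it).

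T cells showed the broadest difference between the libraries. The 45 genes summed to 1319 CPM (1206 to 1440.3) in 41 steady state T cells and 5596 CPM (5471 to 5723) in 298 AngII T cells, a ratio of 4.24 (3.87 to 4.65). Of 43 members with enough UMIs, 39 stood at least 2-fold higher and 0 at least 2-fold lower, beside 20.1% and 6.79% of all genes. The median member was 4.91-fold higher with genes at 0 set to their bound, against 1.15 for all genes. Replication genes summed to 326 and 1872 CPM, mitosis genes to 154 and 1316 CPM, and chromatin and cytoskeleton genes to 839.7 and 2409 CPM. Without the top 3 T cells of each library the ratio was 4.36, and 33 of 38 members stood at least 2-fold higher. A share of all genes was not taken after this step.

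Among single genes in T cells, *Pcna* rose from 50.3 to 506 CPM, and *Mcm3* and *Mcm6* rose 5.72-fold and 3.96-fold, to 136 and 178 CPM. *Rrm2* was at 0 in the steady state T cells and at 146 CPM on AngII, at least 18.4-fold higher. Of the mitosis genes, *Top2a* rose from 29.1 to 206 CPM. *Mki67* had 1 UMI in the steady state T cells and 243 in 31 AngII T cells (2.65 and 179 CPM), a ratio of 67.6 with a wide interval of 12 to 2679.7. *Birc5* and *Ube2c*, both at 0 at steady state, were at least 9.82-fold and 12.1-fold higher. *Stmn1* rose from 29.1 to 599.6 CPM (20.6, 11.4 to 41.4) and *Hmgb2* from 434 to 1095 CPM (2.52). By contrast, *Cenpa* had 79.5 and 84.7 CPM and *Smc4* 315 and 516 CPM, both under the 2-fold threshold, as were *Kif23* and *Mcm4*.

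**Figure D5:**
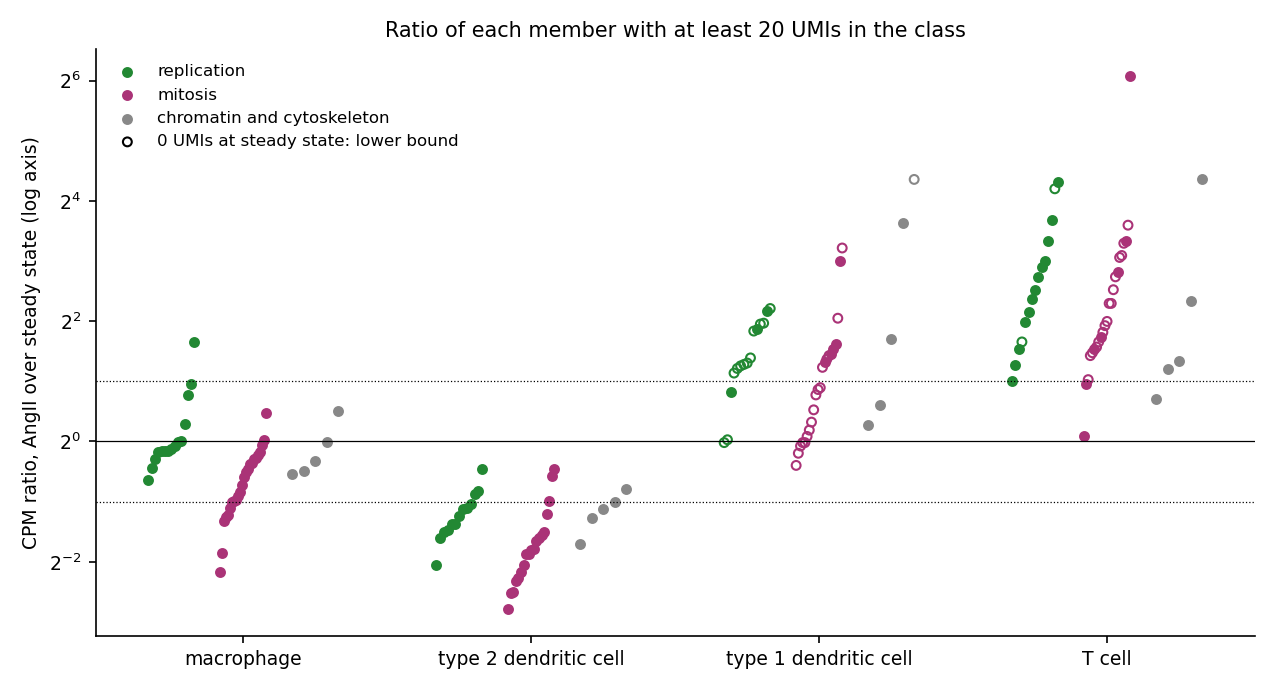
CPM ratio of AngII over steady state (log axis) for each member with at least 20 UMIs in macrophages, type 2 dendritic cells, type 1 dendritic cells and T cells; open symbols are lower bounds for genes at 0 in steady state cells. Members lie mostly above 2 in T cells and mostly below 1 in type 2 dendritic cells, and the macrophage values include the steady state cell with the most member UMIs.

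Part of the AngII T cells carried transcripts of immature T cells of the thymus. Of 6 such genes, *Rag1*, *Rag2*, *Dntt*, *Ptcra*, *Arpp21* and *Endou*, chosen after the values were seen, all 6 were detected in AngII T cells, with 441 UMIs in 83 of 298 cells, or 325 CPM (295 to 357). Of these UMIs 323 were from *Dntt*, the polymerase that adds bases at antigen receptor joints. Steady state T cells had 1 UMI, of *Ptcra* (2.65 CPM). In other AngII classes, the 6 genes stood at 209 CPM (112 to 358) in plasmacytoid dendritic cells, with 13 UMIs of 1 gene in 4 of 14 cells, at 32.5 CPM in unassigned cells and at 3.51 CPM in macrophages. The AngII T cells with a UMI of these genes had 8087 CPM of the 45 genes and those without had 2850.3 CPM, with replication genes at 2934 and 701 CPM and mitosis genes at 1888 and 684 CPM. *Pcna* stood at 774 and 211 CPM and *Mki67* at 259.9 and 89.8 CPM. *Il7r* and *S1pr1*, receptors of mature T cells, ran the other way, at 46.4 and 469 CPM and at 18.3 and 207 CPM. Without these cells, the ratio of AngII to steady state T cells was 2.13 in place of 4.24. At equal depth the share with at least 2 of the 40 genes was 52.5% with and 30.6% (22.2 to 40.1) without a UMI of these genes, against 4.88% in steady state T cells. Cells with such a UMI were deeper, with a median of 1702 against 1022 UMIs. A cell without one may still express these genes, so the split does not separate kinds of T cell, and neither does the ratio of 2.13. Whether thymic tissue was carried along with the aorta was not tested.

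Type 1 dendritic cells, which present antigen to CD8 T cells, were few at steady state. The 45 genes summed to 524 CPM (428 to 636) in 10 steady state cells and 2848 CPM (2768 to 2928) in 216 AngII cells, a ratio of 5.43 (4.47 to 6.67). Of 42 members with enough UMIs, 25 stood at least 2-fold higher and 0 at least 2-fold lower, beside 16.0% and 7.22% of all genes, and 30 were at 0 at steady state, so that most of these folds are lower bounds. *Hmgb2* rose from 234 to 764 CPM, and *Stmn1* and *Top2a*, both at 0 at steady state, reached 313 and 142 CPM on AngII, at least 20.5-fold and 9.30-fold higher. *Mki67* rose from 35.6 CPM (7 UMIs in 3 cells) to 98.0 CPM. With cells thinned to 1000 UMIs the ratio was 2.02. Without the top cell of each library it was 5.39 with 16 of 41 members at least 2-fold higher, and without the top 3 it was 4.91 with 12 of 34. Shares of all genes were not taken after these steps. The AngII level also rested on few cells, since 3 held 29.1% of its member UMIs.

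In type 2 dendritic cells, which present antigen to CD4 T cells, the genes were lower on AngII. They summed to 3029 CPM in 20 steady state cells and 1157 CPM (1108 to 1208) in 186 AngII cells, a ratio of 0.382 (0.357 to 0.409). Of 37 members with enough UMIs, 30 stood at least 2-fold lower and 0 at least 2-fold higher, beside 8.08% and 11.8% of all genes. *Top2a* fell from 201 to 57.9 CPM, *Mki67* from 161 to 44.0 CPM and *Stmn1* from 338 to 103 CPM. At steady state 3 cells held 79.0% of the member UMIs, and on AngII 3 held 57.7%. Without them, the sums were 772 and 527 CPM, a ratio of 0.682 (0.599 to 0.779), with mitosis genes at 79.2 and 89.3 CPM and replication genes at 403 and 179 CPM. Of the 15 members that then had enough UMIs, 8 stood at least 2-fold lower and 1, *Cenpa*, at least 2-fold higher. A share of all genes was not taken for these sums. The lower mitosis level was thus not present without 3 cells per library, and the lower replication level was. Leaving out 3 of 20 steady state cells takes a larger part than 3 of 186 on AngII, which by itself tends to raise the ratio.

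Monocytes and B cells had too few member UMIs for most genes. In monocytes the 45 genes summed to 963 and 708 CPM (24 and 198 cells), and 8 members had enough UMIs, of which 1, *Stmn1* (1 and 24 UMIs, 3.04 and 18.5 CPM), stood at least 2-fold higher and 0 at least 2-fold lower, beside 10.8% and 8.78% of all genes. *Kif23*, with 16 UMIs in steady state and 3 in AngII monocytes, was under the minimum of 20 for a fold. In B cells the sums were 858 and 603 CPM (50 and 109 cells), and of 6 members 2 stood at least 2-fold lower and 0 at least 2-fold higher, beside 5.74% and 7.62% of all genes. They were *Cenpa*, at 145 and 52.5 CPM (0.362), and *Rrm1*, at 47.3 and 16.8 CPM.

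Further cell cycle genes differed in the same direction as the members in T cells and in type 2 dendritic cells. In T cells, 24 of 26 further replication genes, 18 of 23 further mitosis genes, 7 of 8 DNA repair genes and 10 of 12 histone and tubulin genes stood at least 2-fold higher on AngII, beside 20.1% of all genes. Of the cyclins and kinases that start the cycle 6 of 10 did, and of the inhibitors and arrest genes 2 of 13, a share below that of all genes. In type 2 dendritic cells, 13 of 18 further mitosis genes and 7 of 18 further replication genes stood at least 2-fold lower, beside 8.08% of all genes. These counts include the 3 steady state cells that held 79.0% of the member UMIs of the class. The further genes were not compared without those 3 cells, so the counts are no separate evidence from the members. In macrophages, with the top steady state cell included, 6 of 31 further mitosis genes stood at least 2-fold lower and 1 at least 2-fold higher, and of 27 further replication genes 2 and 3 did, beside 9.27% and 8.66% of all genes.

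Macrophages with many members carried other cell cycle transcripts and less of the macrophage markers. At 1000 UMIs, 63 AngII macrophages had at least 5 of the 45 genes, 529 had 1 to 4 and 692 had none. Since the members chose these cells, only other genes are compared between the 63 and the 692, as a description. Lists are counted over their genes with at least 20 UMIs in AngII macrophages, beside the 9232 other genes with at least 50, of which 12.5% stood at least 2-fold higher in the 63 cells and 13.3% at least 2-fold lower. Of further mitosis genes 29 of 31 were at least 2-fold higher, of further replication genes 26 of 27, of repair genes 8 of 8 and of E2F, FOXM1 and MYB factors 9 of 11. *Pbk*, a mitotic kinase, *Kif4*, a chromosome kinesin, *Mybl2* and *E2f7*, transcription factors of the cycle, and the histone gene *Hist1h3c* were at 0 in the 692 cells and at least 96.8-fold, 84.7-fold, 78.6-fold, 66.5-fold and 42.3-fold higher in the 63. Outside the lists the highest ratios were those of *Pclaf*, a partner of PCNA (918 and 2.05 CPM), *Gzma*, *Pkmyt1*, *Asf1b*, *Cenpw*, *Dtl*, *Cenpq* and *Cdca7*, where *Gzma*, a granzyme of cytotoxic lymphocytes, came from 46 UMIs in 1 cell.

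Of 6 macrophage growth and brake genes with enough UMIs, 0 were at least 2-fold higher in these cells and 3 at least 2-fold lower. *Maf*, a factor that restrains macrophage division, stood at 136 CPM in the 63 cells and 713 CPM in the 692 (0.192, 0.132 to 0.270). *Csf1*, a macrophage growth factor, was at 0 in the 63 cells and at 24.2 CPM in the 692, and *Gadd45a* had 0 and 28 UMIs, too few for a fold. The gate gave each of the 63 cells at least 2 macrophage markers, which summed to 12159 CPM against 30963 CPM in the 692. *C1qa* was detected in 90.5% and 93.2% of cells, while *Apoe* stood at 3594 and 16546 CPM, *Csf1r* at 434 and 784 CPM and *Adgre1*, the gene of F4/80, at 190.2 and 357 CPM. T cell markers summed to 99.3 and 18.9 CPM and were found in 7 of the 63 cells and 56 of the 692, with *Cd3e* at 20.7 and 1.82 CPM, *Cd3d* at 4.14 and 4.10 CPM and *Trac* at 0 and 1.14 CPM. Myeloid progenitor markers summed to 45.5 and 12.5 CPM and were found in 7 and 42 cells. The part of other cells or free RNA in these 63 barcodes was not tested.

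The eYFP transcript was compared between macrophages with more and with fewer member transcripts. At 1000 UMIs, EYFP was detected in 5 of 18 steady state macrophages with at least 2 of the 45 genes (27.8%, 9.69 to 53.5) and in 21 of 112 with fewer (18.8%, 12 to 27.2). On AngII the shares were 23 of 242 (9.5%, 6.12 to 13.9) and 91 of 1042 (8.73%, 7.09 to 10.6). At full depth EYFP stood at 309 and 227 CPM at steady state and at 111 and 105 CPM on AngII. The intervals of the shares overlapped in both libraries.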

How the data were processed

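Single-cell transcripts were counted in 1 steady state and 1 AngII library. The authors used Cell Ranger 3.1.0 for mapping to mouse GRCm38.p6 (GENCODE M24) plus eYFP, and the deposited matrices hold raw UMI counts of each gene in each barcode. Gene coordinates were matched by ID to GENCODE M21 on GRCm38.

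Barcodes were filtered at the thresholds stated by the study. A cell was gated to the class with the highest share of markers detected among 19 lists, with at least 2 markers, and ties stayed unassigned. UMIs were summed per class and expressed as CPM, with exact Poisson intervals for levels, conditional binomial intervals for ratios and Clopper-Pearson intervals for shares, all at 95%. No filter other than 20 UMIs over both libraries was set on genes for folds. Thinning drew 1000 UMIs per cell without replacement with a fixed seed. Values in full were given for members with the most UMIs (up to 6 replication, 8 mitosis and the 5 chromatin and cytoskeleton genes), and for genes outside the members the 5 highest and 3 lowest ratios of the lists and the 8 highest outside them, while further genes were named after their values were seen. The members and gene lists were chosen with earlier results of these data known, and the thymocyte genes after their values were seen, with 1 further gene not reported here. Alternatives changed the filter, scaling, depth, gate, members and single cells, some of them added after the data were seen. On simulated libraries, 91.5% of 200 genes changed 4-fold were called in the right direction and 3.09% of unchanged genes were called, over 14046 genes. Those counts were drawn as Poisson from the summed steady state profile of all cells. The draw held no gathering of UMIs in single cells and no cell class, so false calls can be more frequent in the data. Computation used SciPy 1.17.1 and NumPy 2.4.6 in Python 3.11.15, with tables in pandas 2.3.3 and plots in Matplotlib 3.10.9. Flow cytometry and histology were not analysed here.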

Additional observations from a re-analysis of the deposited data

Results flagged for a closer look

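The difference between the libraries ran in opposite directions in different classes. The summed level of the 45 genes on AngII over steady state was 4.24 in T cells and 5.43 in type 1 dendritic cells but 0.382 in type 2 dendritic cells. With 1 library per condition the difference between classes was not tested. The type 1 and type 2 dendritic cells at steady state numbered 10 and 20, and the T cells 41.

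Barcodes left out for more than 6500 detected genes also carried these transcripts. The 36 such barcodes of the AngII library had 2861 CPM (2788 to 2935) of the 45 genes, against 1537 CPM in the cells kept. The 4 of the steady state library had 673 CPM (574 to 784), against 1480.0 CPM. Their median depth was 56064 and 52368 UMIs, and whether they were doublets was not tested.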

How the results depend on the processing

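No paired analysis was possible because each condition had 1 library, and for the same reason no replicate could be left out. Of 67 alternatives over 9 results, 30 left the value within its interval or 1.5 times the count, 32 moved it and 5 reversed the direction.

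The ratio of the 45 genes over all cells (1.04) was 1.19 with all barcodes, 1.20 with median of ratios scaling, which shifted the median gene by 0.206 (log2), 1.14 with thinned cells and 1.16 without the top cell, but 0.805 in macrophages alone and 0.991 without *Stmn1*, *Hmgb2* and *Pcna*. The count of 3 members at least 2-fold higher was 6 with thinned cells, 6 without the top cell and 1 in macrophages alone. With thinned cells and without the top cell, no share of all genes was taken. The macrophage ratio (0.805) reversed to 1.30 with thinned cells, 1.18 without the top cell and 1.36 without the top 3, and was 0.890 with all barcodes and 0.756 without the 3 broad genes.

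The macrophage share with at least 2 members, 13.8% at steady state and 18.8% on AngII, was 4.55% and 11.7% at 500 UMIs, 31.0% and 32.2% at 2000 UMIs, 86.4% and 35.9% at full depth, 6.15% and 10.1% without the 3 broad genes, 47.7% and 46.1% with at least 1 member and 3.08% and 9.27% with at least 3. The AngII T cell share (54.7%) was 44.6% at 500 UMIs, 67.6% at 2000, 43.6% without the 3 broad genes and 45% without cells holding thymocyte transcripts.

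The T cell ratio (4.24) was 3.03 thinned and 2.13 without cells holding thymocyte transcripts. The ratio in type 1 dendritic cells (5.43) was 2.02 thinned and 6.88 with all barcodes, and that in type 2 dendritic cells (0.382) was 0.682 without the top 3 cells, 0.527 with all barcodes and 0.354 without the 3 broad genes. Shares of cells with a UMI rise with depth by construction, and the other causes were not tested.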
